A study of Homo sapiens with 6 samples.

Results

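The 56 genes described here encode Wnt ligands, their receptors and co-receptors, secreted antagonists, the R-spondin axis, cytoplasmic and ligand-handling components, TCF/LEF factors and feedback targets. They were listed by name as Wnt pathway genes, with no threshold on their values but with earlier results of these data known, and all 56 were found among the 40396 genes of the deposited expression table. H1, a human embryonic stem cell line, was differentiated to definitive endoderm (DE) for 3 days in 50 ng/ml activin A. Both groups received 2.5 µM CHIR99021 for the first 24 h, an inhibitor of GSK3 that activates Wnt signaling downstream of the receptors. No library here lacked this early exposure. CHIR99021 was then removed, and Wnt activity at the time of sampling was not measured. The SAR group (3 libraries) had 0.5 µM saracatinib, a small-molecule inhibitor of Src family and Abl kinases, on all 3 days, and the control group (3 libraries) had an equal volume of DMSO. The labels name the libraries as separate samples and do not say whether they came from separate cultures, so p-values measure the spread between these samples, which may be technical.

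Wnt proteins are secreted lipid-modified ligands that bind a frizzled receptor together with a co-receptor. In the canonical branch, LRP5 or LRP6 joins the frizzled, the complex that destroys beta-catenin is held off, and beta-catenin enters the nucleus to act with TCF/LEF factors. In the other branches, receptors such as ROR1, ROR2 and RYK pass the signal to the cytoskeleton. Canonical Wnt signaling works with activin and nodal in the primitive streak, from which the definitive endoderm arises.

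Expression was given as FPKM, the fragments of a gene scaled to its length and to the fragments of the library, so levels can be set side by side between genes. The read totals recovered from the table lay between 18877964 and 24419937 in control and between 16681280 and 18389543 with SAR. Control 1 had 33169 genes above 0 and the other libraries 29506 to 30109. Fold changes are differences of log2(FPKM + 0.1), which understates the change of low genes, tested with limma and Benjamini-Hochberg (BH) adjustment over the 16371 genes whose 6 libraries averaged 0.5 FPKM or more. A gene was called upregulated or downregulated at an adjusted p under 0.05 and a log2 fold change beyond 1 in size. Over these 16371 genes the median log2 fold change was 0.12, and rescaling each library by its median ratio moved it to -0.02.

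Of the 56 Wnt genes, 47 reached the minimum level and were tested. SAR upregulated 9 of them, namely the ligands WNT5B and WNT8A, the frizzleds FZD1, FZD2 and FZD8, the antagonist DKK1, the nuclear factors TCF7L2 and LEF1, and the target SP5. It downregulated 1, NOTUM, an enzyme that inactivates Wnt ligands. Among all tested genes, 3.41% were upregulated and 1.58% downregulated. At the adjusted p alone, 17 Wnt genes were higher and 4 were lower, against 23.7% and 9.55% of all tested genes. The groups did not overlap in 24 Wnt genes that were higher and 6 that were lower with SAR, against 35.5% and 15.2% of all tested genes. The median fold change of the 47 genes was 0.21. WNT5A, WNT5B, WNT11, RNF43 and LEF1 had a control mean under 0.5 FPKM and entered the test through their SAR levels. NOTUM had a SAR mean of 0.391 FPKM and entered it through its control levels. These counts therefore describe the genes above the minimum only.

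After median-ratio rescaling, 8 Wnt genes were upregulated and 1 downregulated, where 2.32% and 2.33% of all tested genes were. At the adjusted p alone 13 were then higher and 5 lower, where 12.6% and 15.5% of all tested genes were, and the median was 0.07. The gene that left the upregulated set was TCF7L2, at 0.88, with an adjusted p of 0.000495 (limma, BH). In bulk RNA, a change in the RNA per cell and a change in the number of cells that express a gene cannot be told apart.

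**Figure D1:**
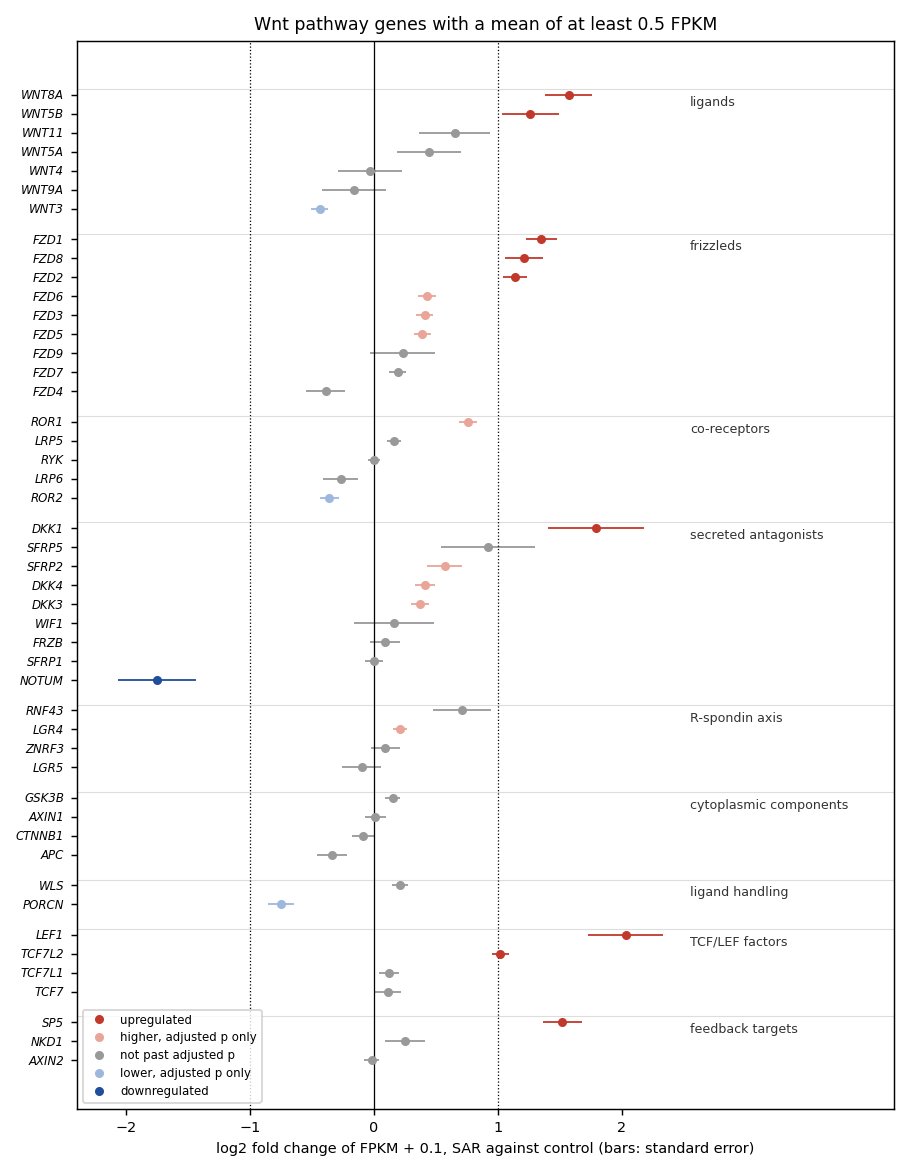
Fold change of the 47 tested Wnt genes (SAR against control, log2 of FPKM + 0.1 on the horizontal axis), grouped by role, with bars for the standard error and colours for the call. Most points lie between -1 and 1, with 9 genes beyond 1 and NOTUM alone beyond -1.

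The main ligands of these cells were WNT3 and WNT8A, both of which act through beta-catenin, and they moved in opposite directions. WNT3, which is needed for primitive streak formation, had the highest ligand level in control. It stood at 6.28, 6.76 and 5.96 FPKM in control and at 4.69, 4.44 and 4.77 with SAR, without overlap, and fell by 0.44 on the log2 scale (SE 0.0709, adjusted p = 0.00525, limma, BH). WNT8A, a ligand of the early embryo's posterior and axial regions, stood at 1.56, 2.41 and 1.89 FPKM in control and at 5.09, 5.39 and 7.46 with SAR. Its lowest SAR library was above every control library, and it rose by 1.57 (SE 0.193, adjusted p = 0.00224). WNT8A was expressed at 0.248, 0.356 and 0.317 times the level of WNT3 in the control libraries and at 1.08, 1.21 and 1.56 times with SAR, so that it passed WNT3 in each SAR library. Of the summed FPKM of the 12 ligands, WNT3 made up 55.5% ± 2.21 (SD, n = 3) in control and 31% ± 3.11 with SAR, and WNT8A 17.1% ± 3.51 and 39.4% ± 3.39.

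WNT5B, which mostly signals without beta-catenin, was the other upregulated ligand. Its levels were low, at 0.398, 0.357 and 0.262 FPKM in control and 0.99, 0.835 and 1.01 with SAR, and did not overlap (log2 fold change 1.26, SE 0.229, adjusted p = 0.00801, limma, BH). The related WNT5A and WNT11 also had every SAR library above every control library, with fold changes of 0.44 and 0.65, but adjusted p-values of 0.226 and 0.12. WNT4 (-0.03) and WNT9A (-0.16) overlapped between the groups. The 12 ligands together summed to 11.4 ± 0.918 FPKM in control and 15.1 ± 1.97 with SAR, with no overlap; sums over a role were not tested.

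**Figure D2:**
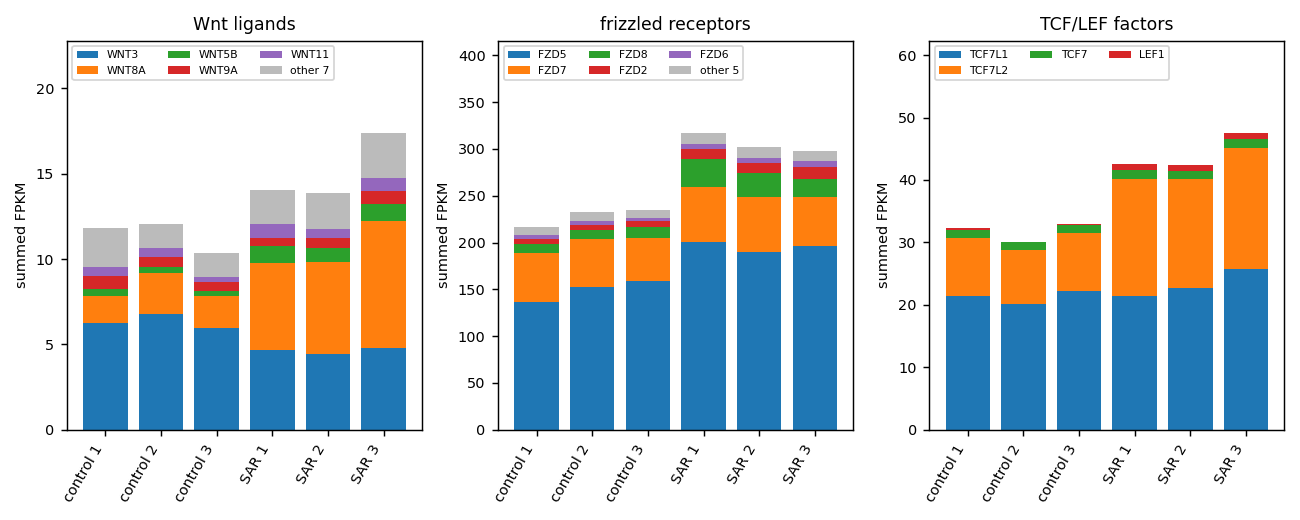
Summed FPKM of the ligands, the frizzleds and the TCF/LEF factors in each of the 6 libraries (vertical axis, linear from 0), split by gene. WNT8A makes up 13.2% to 19.9% of the ligand sum in control and 36.2% to 43% with SAR, while FZD5 stays the main frizzled in every library.

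The frizzleds, the seven-span receptors for Wnt, were the role with the largest number of members higher with SAR. The roles differ in size, and 2 of the 4 TCF/LEF factors were upregulated. Of the 9 frizzleds tested, 3 were upregulated, a further 3 were higher at the adjusted p alone, and none was lower. Among all tested genes, 3.41% were upregulated and 23.7% were higher at the adjusted p. After rescaling, 3 frizzleds were upregulated and 5 were higher at the adjusted p, against 2.32% and 12.6% of all tested genes. FZD2 stood at 4.99, 5.17 and 5.49 FPKM in control and at 11.2, 10.5 and 13.3 with SAR (log2 fold change 1.14, SE 0.0962, adjusted p = 0.000703, limma, BH). FZD8 stood at 9.91, 10.4 and 11.7 FPKM in control and at 29.6, 26.3 and 19.3 with SAR (1.21, SE 0.156, adjusted p = 0.00259). FZD1 was at 0.748, 0.689 and 0.638 FPKM in control and at 1.89, 1.81 and 2.05 with SAR (1.35, SE 0.124, adjusted p = 0.000926). The groups were apart for all 3 genes, and in FZD8 the SAR libraries spread most, with SAR 3 nearest to control.

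FZD5, the most expressed frizzled, stood at 137, 153 and 159 FPKM in control and at 201, 190 and 196 with SAR. It rose by 0.39 (adjusted p = 0.0073, limma, BH), and after rescaling its fold change was 0.25, with an adjusted p of 0.0694. FZD5 made up 65.5% ± 2.26 of the summed frizzled FPKM in control and 64.1% ± 1.56 with SAR, so the leading receptor kept its share. FZD8 went from 4.67% ± 0.265 to 8.18% ± 1.5 and FZD2 from 2.29% ± 0.0584 to 3.84% ± 0.552 of that sum. FZD3 (0.41) and FZD6 (0.43) were also higher at the adjusted p alone.

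FZD7, the second most abundant frizzled, went from 49.4 ± 2.73 to 56.3 ± 3.53 FPKM without overlap, at a fold change of 0.19 and an adjusted p of 0.072. Without SAR 3, it passed the threshold (0.24, adjusted p = 0.0317, limma, BH). Over the libraries left out its adjusted p reached 0.228, and after rescaling its fold change was 0.05 (adjusted p = 0.636). FZD4 was the only frizzled with every SAR library below every control library, at -0.39 and an adjusted p of 0.0982. Its exons overlap those of PRSS23 on the opposite strand over 18.9% of their length, and the strand setting is not given. The 10 frizzleds summed to between 217 and 235 FPKM in control and between 298 and 317 with SAR, a ratio of the means of 1.34.

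Among the co-receptors, the paired receptors ROR1 and ROR2, tyrosine kinase-like receptors that bind WNT5A, moved in opposite directions. ROR1 stood at 4.4, 4.2 and 4.52 FPKM in control and at 7.51, 7.98 and 6.92 with SAR, and rose by 0.76 (SE 0.0737, adjusted p = 0.00114, limma, BH). ROR2, the most expressed member of this role, stood at 22.4, 25.1 and 24.2 FPKM in control and at 20.2, 18.6 and 17 with SAR, and fell by 0.36 (adjusted p = 0.0149). Neither gene overlapped between the groups. The ROR2 result was the weaker of the pair, with an adjusted p of 0.0516 without control 2 and of 0.0574 without control 3.

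LRP5 and LRP6, the co-receptors of the canonical branch, did not pass the threshold, with fold changes of 0.16 (adjusted p = 0.0646) and -0.27 (adjusted p = 0.176, limma, BH). LRP6 stood at 13.3, 15.8 and 15 FPKM in control and at 10.6, 11.2 and 15.1 with SAR. SAR 3 lay among the control libraries, and without it LRP6 was lower (-0.42, adjusted p = 0.0163). RYK, at 11.8 FPKM in both groups, had a fold change of 0.00 with an unadjusted 95% interval from -0.11 to 0.12.

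The secreted antagonists held both the largest increase and the largest decrease among the tested ligands, receptors and antagonists. DKK1 blocks LRP5 and LRP6 and is itself a target of beta-catenin. It stood at 9.02, 7.41 and 8.42 FPKM in control and at 45.8, 35.7 and 14.6 with SAR, and rose by 1.79 (SE 0.387, adjusted p = 0.0144, limma, BH). The groups did not overlap, but SAR 3 was far below the other SAR libraries. The fold change was 2.28 without SAR 3 and 1.46 without SAR 1, with adjusted p-values between 0.000934 and 0.0497 over the libraries left out. Relative to DKK4, a related inhibitor, DKK1 was at 0.53, 0.365 and 0.442 in control and at 1.81, 1.53 and 0.556 with SAR, and SAR 3 came close to control 1 on this measure.

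NOTUM, which removes the lipid from Wnt proteins and is also a known target of the pathway, went the other way. It stood at 1.68, 1.81 and 1.07 FPKM in control and at 0.35, 0.243 and 0.579 with SAR, and fell by 1.75 (SE 0.314, adjusted p = 0.00758, limma, BH). No SAR library reached the lowest control library.

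The frizzled-related proteins, decoys that bind Wnt outside the cell, gave the bulk of the antagonist RNA. SFRP1, the most expressed antagonist, stood at 157, 181 and 172 FPKM in control and at 164, 164 and 182 with SAR, for a fold change of 0.00 (unadjusted 95% interval -0.18 to 0.18, adjusted p = 0.995, limma, BH). SFRP2 stood at 34.7, 22.7 and 27.9 FPKM in control and at 43.2, 41.8 and 39.7 with SAR, and rose by 0.57 (SE 0.143, adjusted p = 0.0236). It passed the threshold neither without control 3 (adjusted p = 0.0705), nor without SAR 1 (0.0687) or SAR 2 (0.0671), nor with no filter on low values (0.0584).

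SFRP5 depended on a single library. Control 1 was at 1.24 FPKM and the other controls at 0.435 and 0.394, while SAR was at 1.27, 1.1 and 1.36. The fold change was 0.92 with an adjusted p of 0.103, and 1.38 with an adjusted p of 0.00703 without control 1 (limma, BH). DKK3 (0.37) and DKK4 (0.41) were higher at the adjusted p alone, at adjusted p-values of 0.0707 and 0.0796 after rescaling. FRZB (0.09) and WIF1 (0.16) overlapped between the groups.

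**Figure D3:**
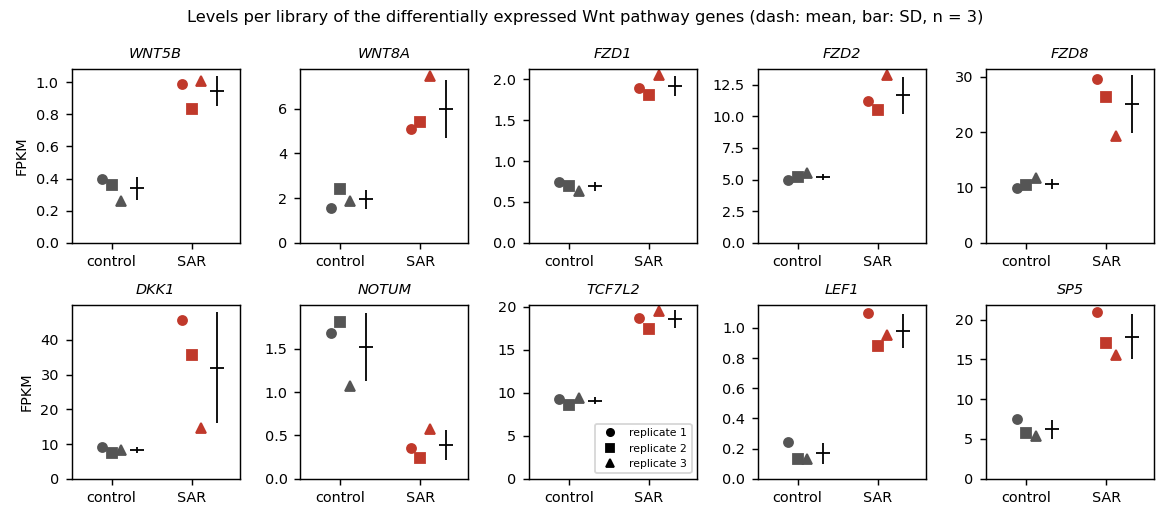
FPKM per library (vertical axes, linear from 0) of the 10 upregulated or downregulated Wnt genes, with a marker for each replicate number, a dash for the mean and a bar for the SD of the 3 libraries. In every panel the groups are apart, and the SAR libraries spread most for DKK1, from 14.6 to 45.8 FPKM.

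The R-spondin axis sets how many frizzleds stay on the cell surface: RNF43 and ZNRF3 are ubiquitin ligases that remove them, and R-spondins bound to LGR4 or LGR5 stop the ligases. LGR4, the most expressed of these genes, stood at 15.6, 14.9 and 14.6 FPKM in control and at 17, 17.3 and 17.9 with SAR. It rose by 0.21 (adjusted p = 0.0238, limma, BH) but its adjusted p was 0.37 after rescaling and 0.0567 with the replicate number as a block. It also missed the threshold without control 2 (0.0731), control 3 (0.102) or SAR 2 (0.0724). RNF43 stood at 0.361, 0.336 and 0.393 FPKM in control and at 0.691, 0.718 and 0.567 with SAR, at a fold change of 0.71 and an adjusted p of 0.0576. Its exons overlap others on the same strand over 59.5% of their length, those of SUPT4H1 and AC004687.2. On the opposite strand they overlap TSPOAP1-AS1 over 20.3%. How reads of these stretches were assigned is not given, so the RNF43 level is uncertain. LGR5 (-0.10) and ZNRF3 (0.09) overlapped between the groups.

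None of the 4 cytoplasmic components passed the threshold. CTNNB1, which encodes beta-catenin, stood at 37.3, 43.3 and 44.1 FPKM in control and at 35.5, 40.3 and 41.7 with SAR, at a fold change of -0.09 (unadjusted 95% interval -0.30 to 0.13, adjusted p = 0.478, limma, BH). The scaffold genes AXIN1 (0.01) and APC (-0.34) and the kinase gene GSK3B (0.15) were among them, and APC was lower after rescaling (-0.48, adjusted p = 0.0299).

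Of the 2 genes for ligand handling, PORCN attaches the lipid to Wnt and WLS carries the ligand to the surface. PORCN stood at 5.81, 6.24 and 4.83 FPKM in control and at 3.14, 3.25 and 3.49 with SAR, and fell by 0.75 (SE 0.106, adjusted p = 0.00347, limma, BH). WLS stood at 14.5, 16.3 and 14.2 FPKM in control and at 17.4, 16.8 and 17.8 with SAR, without overlap (0.21, adjusted p = 0.0532). WLS passed the threshold without control 2 (0.27, adjusted p = 0.0325) and with protein-coding genes only (0.0369). It also passed with a minimum mean of 1 FPKM (0.0488) and with voom on the recovered reads (0.039). Under the other 12 of the 16 alternatives it did not pass. After rescaling its fold change was 0.07 (adjusted p = 0.554, limma, BH). The lengths behind the PORCN, GSK3B, DKK3, FZD2 and RSPO3 values were over 1.5 times those of the annotation, so the levels of these 5 genes set beside other genes depend on the length used.

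The TCF/LEF factors carry beta-catenin on DNA, and the makeup of this family changed. TCF7L1, usually a repressor, was the most expressed and stood at 21.5, 20.2 and 22.2 FPKM in control and at 21.5, 22.7 and 25.7 with SAR (0.12, adjusted p = 0.254, limma, BH). TCF7L2 stood at 9.25, 8.62 and 9.35 FPKM in control and at 18.7, 17.4 and 19.5 with SAR, and rose by 1.02 (SE 0.0658, adjusted p = 0.000332). Its value sat at the fold threshold, falling to 0.98 without control 2 or without SAR 3. The ratio of TCF7L2 to TCF7L1 was 0.431, 0.426 and 0.421 in control and 0.87, 0.764 and 0.76 with SAR, with a narrow spread in both groups.

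LEF1, usually an activator and a target of the pathway, was at a low level in control. It stood at 0.247, 0.13 and 0.128 FPKM in control and at 1.1, 0.881 and 0.953 with SAR, which corresponds to 29, 17 and 13 recovered reads against 98, 80 and 94. It rose by 2.03 (SE 0.299, adjusted p = 0.00401, limma, BH), the largest fold change among the 47 tested genes. Even with SAR, LEF1 made up only 2.22% ± 0.308 of the summed FPKM of the 4 factors. TCF7 had a fold change of 0.11.

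The feedback targets did not move together. SP5, a zinc finger repressor switched on by beta-catenin, stood at 7.55, 5.75 and 5.34 FPKM in control and at 21, 17.1 and 15.5 with SAR, and rose by 1.52 (SE 0.158, adjusted p = 0.00133, limma, BH). AXIN2, the most widely used readout of the pathway, stood at 5.39, 5.34 and 5.18 FPKM in control and at 5.29, 5.1 and 5.32 with SAR. Its fold change was -0.02 with an unadjusted 95% interval from -0.15 to 0.12, and its exons overlap those of AC004805.1 on the same strand over 25.2% of their length. SP5 was at 1.4, 1.08 and 1.03 times the level of AXIN2 in control and at 3.98, 3.36 and 2.91 times with SAR. NKD1, a further feedback inhibitor, had a fold change of 0.25 and an adjusted p of 0.27.

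The 11 members known as targets or feedback regulators of beta-catenin, taken over all roles, were also split. They include the feedback targets above. SP5, DKK1, LEF1 and DKK4 were higher at the adjusted p, NOTUM was lower, and AXIN2, NKD1, TCF7, RNF43, ZNRF3 and LGR5 did not pass it. Among all tested genes, 23.7% were higher and 9.55% lower. DKK4 did not pass after rescaling (adjusted p = 0.0796, limma, BH). LEF1 and RNF43 entered the test through their SAR levels and NOTUM through its control levels.

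**Figure D4:**
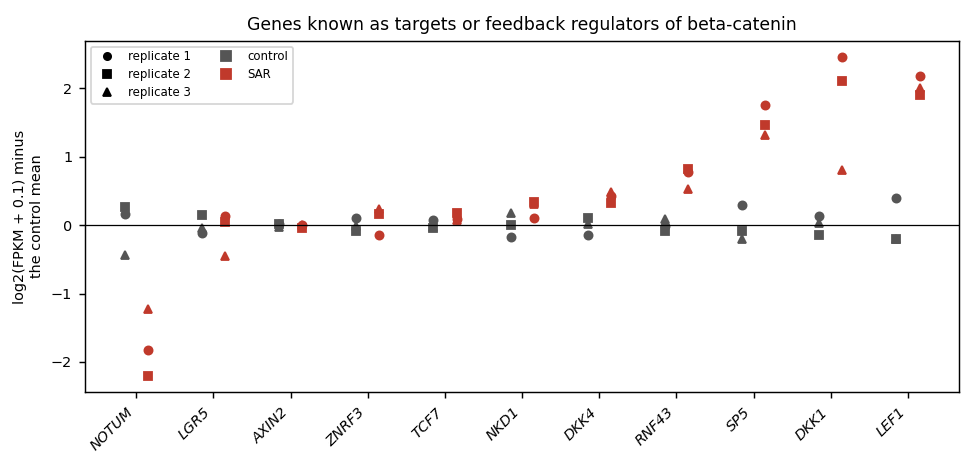
log2(FPKM + 0.1) of 11 target or feedback genes in each library, minus the control mean (vertical axis), with a marker for each replicate number. LEF1, SP5 and DKK1 lie above control in every SAR library, NOTUM lies below, and AXIN2 lies between -0.05 and 0.02 in all 6 libraries.

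SP5 and DKK1 were the called genes of the feedback target and antagonist roles with a promoter window in the RefSeq table. These windows are shown to place a single form of the letters that TCF/LEF factors are known to bind. SP5 lies at chr2:170715351-170718078 on the plus strand and DKK1 at chr10:52314296-52318042 on the plus strand (GENCODE 29, GRCh38). Each window runs from 250 bases before to 50 after the RefSeq start (GRCh38.p14, plus strand, 5′ to 3′), chr2:170715087-170715386 for SP5 and chr10:52314031-52314330 for DKK1. Capitals mark the letters CTTTGAT, the only form searched, on both strands.
SP5: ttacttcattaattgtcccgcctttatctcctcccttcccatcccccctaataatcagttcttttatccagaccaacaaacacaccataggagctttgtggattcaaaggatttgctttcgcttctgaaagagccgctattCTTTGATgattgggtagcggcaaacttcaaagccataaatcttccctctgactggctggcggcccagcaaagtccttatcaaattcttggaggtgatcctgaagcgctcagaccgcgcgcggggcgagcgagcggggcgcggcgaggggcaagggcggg
DKK1: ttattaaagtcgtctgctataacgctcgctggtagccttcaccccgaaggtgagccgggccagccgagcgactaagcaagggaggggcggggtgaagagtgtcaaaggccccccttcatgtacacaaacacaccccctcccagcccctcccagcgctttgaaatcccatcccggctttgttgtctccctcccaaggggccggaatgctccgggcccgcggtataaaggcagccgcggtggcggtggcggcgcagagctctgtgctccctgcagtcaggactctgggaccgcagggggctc
The letters were found once in the SP5 window, 109 bases before the start (chr2:170715228-170715234), and not in the DKK1 window. Over all genes, 919 of 35116 windows (2.62%) held them, and among the Wnt genes 1 of 48 windows (2.08%), from 38 genes with a window. The 11 windows of called Wnt genes, LEF1 included, held no other match. A match describes the letters only. A window without a match, such as that of DKK1, may hold other forms of the letters, which were not searched.

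The 9 Wnt genes below the minimum level were WNT2B, WNT3A, WNT6, WNT7B, WNT10B, FZD10, DKK2, RSPO1 and RSPO3, with group means between 0 and 0.488 FPKM. WNT3A and RSPO3, singled out after their values were seen, had every SAR library above every control library. WNT3A, a canonical ligand, had 6, 4 and 6 recovered reads in control and 26, 23 and 27 with SAR. Scaled to the read totals, the ratio was 5.95 (exact 95% interval 3.44 to 10.9, counting error only). RSPO3, an R-spondin, had 2, 1 and 1 reads in control and 26, 25 and 30 with SAR, a ratio of 25.4 (9.54 to 95.4). With no filter on low values, WNT3A (adjusted p = 0.0147) and RSPO3 (adjusted p = 0.00853, limma, BH) were upregulated, as were 1.56% of all 40396 genes.

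The other 7 low genes overlapped between the groups. WNT6 had 6 reads and RSPO1 had 12, all of them in control 1. Control 1 was above both other controls in 8 of the 9 low genes (88.9%), in 17 of the 47 tested Wnt genes (36.2%) and in 42.4% of all tested genes. The part of control 1 in the low values was not tested.

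**Figure D5:**
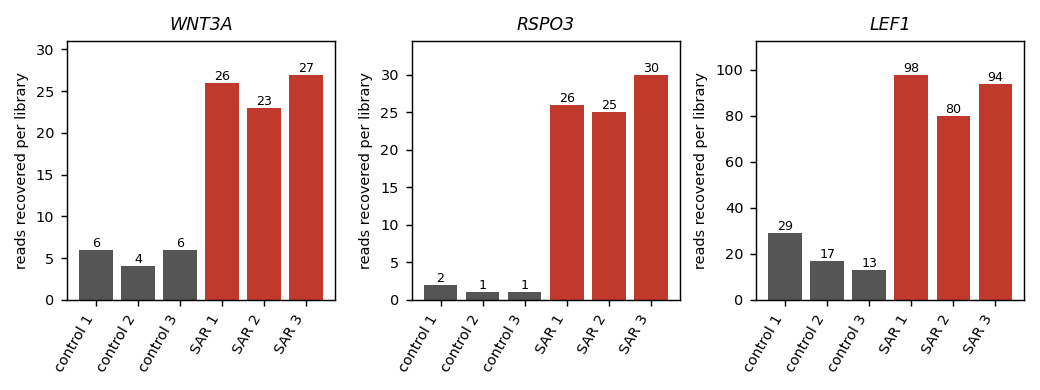
Reads recovered per library (vertical axes, linear from 0) for WNT3A, RSPO3 and LEF1, which had at most 29 reads in a control library. The SAR libraries hold 23 to 27, 25 to 30 and 80 to 98 reads, and the controls 4 to 6, 1 to 2 and 13 to 29.

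A second list of 104 further Wnt pathway genes was examined beside the 56. Of the 79 tested, 7 were upregulated and 3 downregulated, and 35 were higher and 9 lower at the adjusted p alone, with a median fold change of 0.20. Over all tested genes these shares were 3.41%, 1.58%, 23.7% and 9.55%. After rescaling, 6 were upregulated, 3 downregulated, 18 higher and 9 lower, with a median of 0.07. Over all tested genes the rescaled shares were 2.32%, 2.33%, 12.6% and 15.5%. SHISA2 (1.67) and SHISA3 (2.13), which hold frizzleds back inside the cell, were both upregulated. SHISA2 stood at 22.8, 22.4 and 26.2 FPKM in control and at 83.1, 69.4 and 76 with SAR. The cell-surface proteoglycan gene GPC3, at 21.5 ± 2.94 FPKM in control and 60.8 ± 5.51 with SAR, was upregulated as well. So were the cytoplasmic regulators FRAT1 (1.03, and 0.90 after rescaling) and CXXC4 (2.42). CXXC4 had a control mean of 0.199 FPKM and entered the test through its SAR levels. FRAT1 and its relative FRAT2 (0.84, higher at the adjusted p) bind GSK3, and CXXC4 inhibits the Dishevelled proteins. DVL1, DVL2 and DVL3, which encode those proteins, had fold changes from -0.08 to 0.02 and none passed the threshold. Of the 12 planar polarity genes tested, VANGL1 (-0.75) and VANGL2 (-0.50) were lower at the adjusted p. PRICKLE1 (0.53), CELSR3 (0.32) and FUZ (0.35) were higher. After rescaling, VANGL1 (-0.88) and VANGL2 (-0.64) stayed lower and none of the 12 was higher.

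The known target genes on the second list also split. Of the 11 tested, TBXT (1.69) and TNFRSF19 (1.45) were upregulated and MIXL1 (-1.35) and MSX2 (-1.26) were among the downregulated genes. MSX2 had a SAR mean of 0.269 FPKM and entered the test through its control levels. Its fold change ran from -1.56 to -0.49 over the 12 alternatives in which it was tested. TBXT, a factor of the primitive streak and notochord, stood at 3.79, 3.4 and 3.34 FPKM in control and at 14, 11.4 and 9.69 with SAR. MIXL1, a mesendoderm factor, stood at 45.4, 45.3 and 43.3 FPKM in control and at 21.8, 18.3 and 13.3 with SAR.

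The DE label was checked on 11 markers, all of them expressed in both groups. SOX17 (1.06), FOXA2 (1.44) and HHEX (1.03) were upregulated and GSC (-1.48), EOMES (-1.36), CER1 (-1.28) and GATA4 (-1.05) downregulated with SAR. KIT (0.98) was higher and CXCR4 (-0.51) and GATA6 (-0.58) lower at the adjusted p alone, and LHX1 (-0.10) did not pass it. After rescaling SOX17 (0.92) and HHEX (0.89) fell below the fold threshold, and FOXA2 alone stayed upregulated while the same 4 genes were downregulated. The summed FPKM of the list was 3973 to 5079 in control and 2092 to 2144 with SAR, most of it CER1. Of the pluripotency markers NANOG was downregulated (-1.30) and SOX2 higher (0.88), while POU5F1, ZFP42, DPPA4, L1TD1 and PRDM14 did not pass the threshold, and the list summed to 304 to 429 and 400 to 433 FPKM. Of the node and axial mesendoderm markers, 3 of 5 were tested and all 3 were upregulated (NOTO 3.65, CHRD 2.60, FOXJ1 4.40). The list summed to 0.738 to 1.51 FPKM in control and 12.7 to 20.7 with SAR. With a mean control sum of 1 FPKM, not all 3 can have averaged 0.5 FPKM in control. The count therefore rests in part on entry to the test through SAR levels. Among all tested genes, 3.41% were upregulated and 1.58% downregulated. Of 10 primitive streak and mesoderm markers, 5 were tested, with a median fold change of 0.22. At the adjusted p 2 were higher, TBXT (1.69) and TBX6 (0.82), and 2 were lower, MIXL1 (-1.35) among them. The sum was 62.9 to 65.6 and 39 to 51.2 FPKM, of which MIXL1 gave 43.3 to 45.4 in control and 13.3 to 21.8 with SAR. Of 5 neural ectoderm markers only NES was tested (0.22, adjusted p = 0.2), SOX1 was at 0 in every control library, and the sum was 54 to 68.5 and 63.9 to 80.8 FPKM. Of 5 trophectoderm and amnion markers GATA3 alone was tested and was upregulated (1.08, and 0.95 after rescaling, below the fold threshold), with sums of 0.981 to 1.82 and 2.13 to 3.53 FPKM. The part of these cell types in the Wnt results was not tested.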

How the data were processed

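mRNA from day 3 of DE differentiation of H1 cells was sequenced as paired-end libraries (3 control, 3 SAR), and the authors deposited FPKM per gene for each library, without pooling. The submitters' processing notes name HISAT2, featureCounts of Subread, DESeq2 and the build GRCh38.p13. The annotation release and the strand setting are not given in the sources used here, so antisense and overlapping genes are a limit.

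FPKM are not counts, so log2(FPKM + 0.1) was tested with limma 3.58.1 in R 4.3.3 (lmFit, eBayes with an intensity trend, group as the only term) for genes averaging 0.5 FPKM or more, with Benjamini-Hochberg adjustment over all of them. The adjusted p threshold was 0.05 and the log2 fold change threshold 1. Read counts were recovered from the FPKM ratios between libraries and the exon lengths of GENCODE 29. A whole-number length was found for all 56 Wnt genes, within 5% of the annotation for 47. Recovered reads gave depth, exact intervals and a voom test, and cover counting error only. Symbols were matched for 40304 of 40396 gene IDs. Promoter windows came from RefSeq.

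The 56 members and all lists were chosen with earlier results of these data known. Values in every library are given for genes called, for genes at the adjusted p with a fold change beyond 0.5, and for the most expressed gene of each role. Called genes of the other lists are named, except 1 that is not reported here. Simulated data with known changes were used to check the fit. The alternatives were each library left out in turn, a replicate block, voom on recovered reads, protein-coding genes only, eBayes without the trend, quantile normalization, rescaling by median ratios, dropping the filter or raising it to 1 FPKM, and a pseudocount of 0.01 or 1. Python 3.11.15 (numpy 2.4.6, pandas 2.3.3, scipy 1.17.1) gave the summaries and matplotlib 3.10.9 the plots. Exact permutation of 3 against 3 libraries cannot go below p = 0.1 and was not used.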

Additional observations from a re-analysis of the deposited data

How the results depend on the processing

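With a pseudocount of 1, 5 Wnt genes were upregulated and 0 downregulated, since WNT5B (0.54), FZD1 (0.79), LEF1 (0.76), TCF7L2 (0.95) and NOTUM (-0.85) fell within the fold threshold while keeping an adjusted p under 0.05 (limma). With a minimum mean of 1 FPKM, 0 were downregulated, because NOTUM was not tested. Leaving out 1 library in turn gave 7 to 10 upregulated and 1 downregulated Wnt genes. LEF1 was not tested without SAR 1 or without SAR 3, where its mean fell under 0.5 FPKM. The replicate numbers did not pair the libraries (correlations of deviations 0.0729, 0.00286 and 0.0247). The replicate block gave 9 upregulated and 1 downregulated Wnt genes, as without it, with 7 and 3 on the second list. Of the values of 21 named genes under 16 alternatives, 301 kept their direction and their side of the threshold, 21 lost their call and 4 gained one. The other 5 turned their direction in genes that passed no test: TCF7L1 (0.12) was -0.01 after rescaling, and SFRP1 (0.00) was -0.14 after rescaling, -0.03 with quantile normalization and between -0.06 and 0.05 with 1 library left out. The cause was not tested. Low counts limit WNT3A, RSPO3, LEF1, WNT5B and NOTUM, and CXXC4 and MSX2 on the second list.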
